A study of Mus musculus with 8 samples.

Results

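The comparison set implantation sites, the stretches of the pregnant uterus where embryos have attached, against ovulated mouse oocytes arrested in the second meiotic metaphase (MII oocytes). Its members are the 2 implantation site arrays and the 2 MII oocyte arrays, taken by the stage in their titles, which are 4 of the 8 arrays of the series. The other 4 are blastocyst arrays, which entered the estimate of spread and are given beside the results only where stated. In each of both stages 1 array carried RNA labelled KO, for a knockout of connexin 43 (Gja1, a gap junction channel protein), and 1 array RNA labelled wild type (WT). The series title ties the loss of connexin 43 to the oocyte, and its design asks how that loss affects the transcriptome at each stage. The labels used here give neither the strain, the day of pregnancy, the driver of the deletion, nor how many oocytes or sites were pooled, and they do not say whether the maternal tissue of the KO implantation site carried the deletion. The source label names embryos from implantation sites, while the tissue label names the implantation site alone. Because the arrays of a stage differ in genotype, genotype was a term of the fit. A genotype difference shared by the stages was thus taken out, while one particular to a stage stays in the spread. The p-values measure the spread between the 8 arrays only, blastocysts included.

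An MII oocyte is transcriptionally silent and lives on a stock of maternal transcripts laid down during growth, which are stored, translated in turn and cleared after fertilisation. At implantation, the stromal cells around the attached embryo turn into decidual cells under progesterone, with the progesterone receptor, HAND2, HOXA10 and BMP2 among the regulators, and gap junctions built from connexin 43 couple these stromal cells. The implantation site also holds uterine epithelium, muscle, vessels, leukocytes and the embryo with its trophoblast.

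All 8 arrays had been scaled to a 2% trimmed mean of 500, and the median signal lay between 134.2 and 220.3. The brightest of 27 Bacillus control probe sets on each array served as the level of background, here called the control level. It was 587.6 on the oocyte KO array, 170.7 on the oocyte WT array, 130.9 on the implantation site KO array and 173.8 on the implantation site WT array. The oocyte KO array thus stood apart, with 20.44% of its probe sets above that level against 45.39%, 50.72% and 50.77% on the other 3. Over all probe sets the log2 signals of both oocyte arrays had a Pearson correlation of 0.747 and those of both implantation site arrays one of 0.823, against 0.491 to 0.580 between the stages. The ratio of 3' to 5' signal of the Actb control, which rises as RNA breaks down or is copied less far, was 6.68 and 33.4 in oocytes (KO, then WT, the order used throughout) and 27.9 and 21.2 at implantation sites. For Gapdh it was 2.41 and 10.1 against 7.46 and 7.21. The 18S ribosomal RNA control read 20940 and 26590 in oocytes and 2403 and 1766 at implantation sites. The 18S signal thus moved with stage, and the lowest 3' to 5' ratios were those of the oocyte KO array. Their part in the results was not tested.

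The targeted gene, Gja1 (chromosome 10, 56377300 to 56390419 of the mouse assembly GRCm38.p6), was among the largest rises. Its representing probe set read 150 and 126 in oocytes, below the control level on both arrays, and 28105 and 44493 at implantation sites. The stages did not overlap, and the KO array was the lower at the implantation site and the higher in oocytes. The fitted difference was 8.01 on the log2 scale (SE 1.05, limma, adjusted p = 0.000155), at least 112-fold, with 7.55 in the KO pair of arrays and 8.47 in the WT pair. The 5 other Gja1 probe sets were higher too, by 1.75 to 7.55. No source used here says whether the probe sets lie in the deleted stretch, so the signal at the KO implantation site checks nothing about the deletion.

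Of 11746 genes tested, 2409 were higher at implantation sites (20.5%) and 1955 were lower (16.6%), together 37.2% (limma, adjusted p under 0.05). Almost all of these differences were at least 2-fold, 2405 of the higher and 1948 of the lower, and 881 and 680 were at least 8-fold. The median difference over all genes tested was -0.06. All 2409 higher calls and 1950 of the lower calls had both arrays of one stage beyond both of the other, which held for 68.7% of all genes tested. Before adjustment, 2924 rises and 2495 falls passed the same threshold. The KO pair and the WT pair of arrays differed in direction for 1 called gene, Reep4, named after its values were seen, with 1531 and 228 in oocytes against 16.4 and 245 at implantation sites. An oocyte signal at or below the control level on both arrays stood behind 631 of the higher calls, and an implantation site signal of that kind behind 375 of the lower calls. For such genes the fold is a lower bound, written as at least N-fold, computed against the control level. Elsewhere the fold is that of the fitted values. Where 1 array of the dimmer stage was below the control level, the fold with that array set to the level is added beside a printed fold if it is over 1.5 times smaller. In a mixed tissue, fewer cells of a type and less RNA per cell cannot be told apart.

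**Figure D1:**
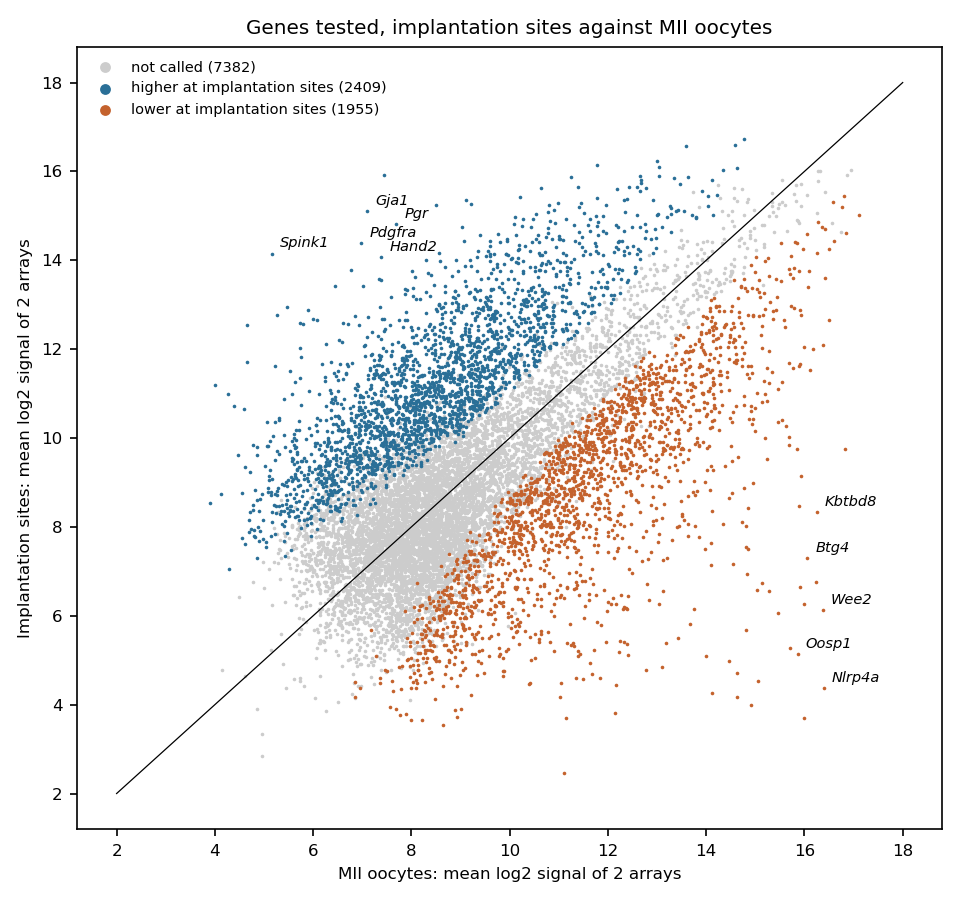
Mean log2 signal of the 2 MII oocyte arrays (x axis) and of the 2 implantation site arrays (y axis) for the 11746 genes tested, with the 2409 higher calls in blue, the 1955 lower calls in orange and equality as a line. The falls reach further from the line than the rises, and a block of oocyte genes at the right lies at low signal on the implantation site arrays.

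With signals below the control level of their array raised to it, which keeps dim values from setting the order, the 12 largest falls were Nlrp4a, Wee2, Khdc1b, Bcl2l10, Oosp3, Btg4, Oosp1, Obox5, Obox2, Tcl1, Kbtbd8 and Nlrp4f, all known from oocytes. Nlrp4a, a member of the NLR family expressed in germ cells, read 74277 and 98872 in oocytes and 42.1 and 10.1 at implantation sites, a fall of 12.02 on the log2 scale (SE 1.24, adjusted p = 3.64e-05), at least 568-fold. Wee2, the oocyte kinase that holds CDK1 inactive, read 58941 and 121103 against 66.5 and 72.6 (-10.25, SE 0.48, adjusted p = 1.21e-06, at least 560-fold). Both genes were below the control level on both implantation site arrays. Btg4, the adaptor that brings the CCR4-NOT deadenylase to maternal messages, read 60246 and 77433 against 111 and 222 (-8.77, SE 0.73), 435-fold lower. Bcl2l10, an oocyte member of the BCL2 family, read 50910 and 84908 against 94.9 and 62 (-9.74, SE 0.84), at least 436-fold lower. Tcl1, a coactivator of AKT, and Kbtbd8, a substrate adaptor of a ubiquitin ligase, were lower too (-8.73 and -7.92). The 12 were taken from genes whose arrays of both stages lay apart, so that this separation is no result. The blastocyst mean was nearer to the implantation site than to the oocyte for all 12, so that most of the fall was already in place in blastocysts. A fall of 1 more gene within this range came under only a clone name and was passed over.

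**Figure D2:**
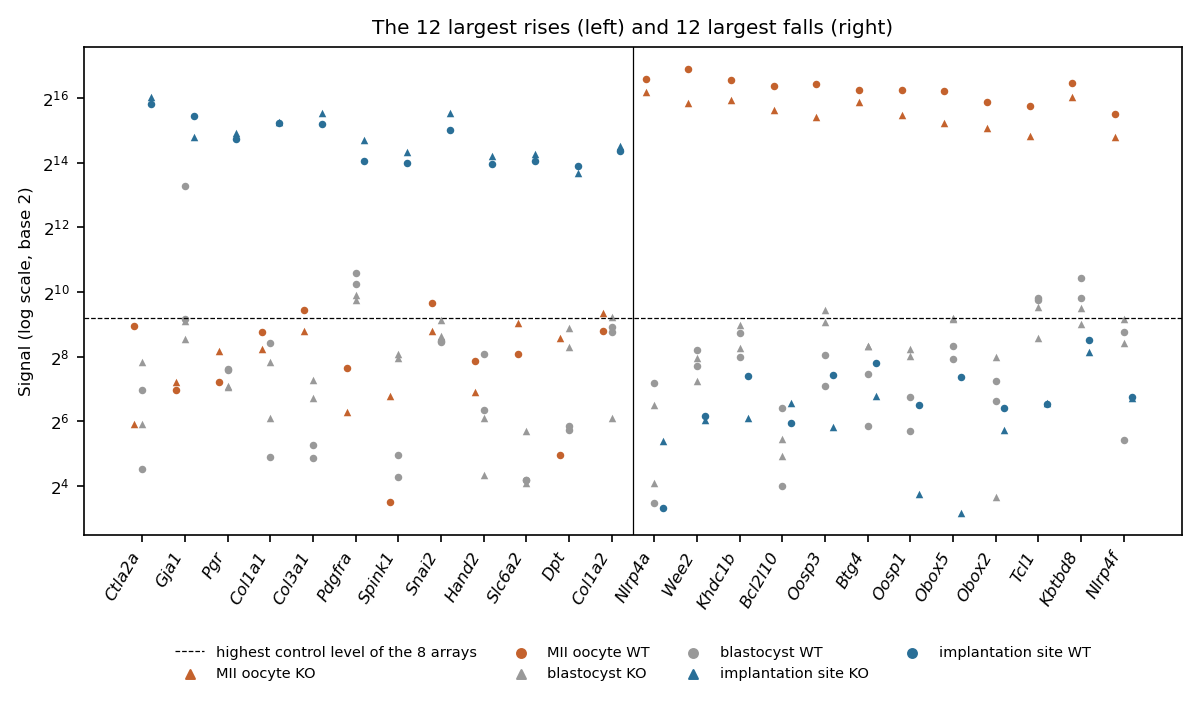
Signal on each array (y axis, log scale of base 2) of the 12 largest rises (left of the line) and the 12 largest falls (right), with oocytes in orange, blastocysts in grey and implantation sites in blue, KO as triangles and WT as circles. The dashed line is the highest control level of the 8 arrays. The genes were chosen for separate oocyte and implantation site arrays. The mean of the blastocyst arrays lies nearer to the oocyte for the rises and nearer to the implantation site for the falls. Single arrays can differ: for Gja1 1 blastocyst WT array read 9835 and the other WT array 574, with 375 and 553 on the KO arrays.

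The stretch of 250 bases before the RefSeq start of some of these genes is shown because they moved together, the first 4 falls and the first 3 rises that have 1 start in the table. The sequences come from RefSeq (GRCm38.p6) and run 5' to 3' on the strand of the gene. They lie at chr6:40442613-40442862 (plus strand, Wee2), chr1:21383306-21383555 (plus, Khdc1b), chr9:51115751-51116000 (plus, Btg4), chr19:11691052-11691301 (minus, Oosp1), chr10:56377050-56377299 (plus, Gja1), chr9:8899583-8899832 (plus, Pgr) and chr1:45311288-45311537 (plus, Col3a1). Capitals mark the E-box CANNTG, the core read by basic helix-loop-helix factors such as FIGLA and HAND2, the NOBOX-type elements TAATTA and TAATTG, and the TATA box TATAAA, each searched on both strands. The stretches of Wee2, Btg4 and Pgr lie inside the gene's annotated span, since the start listed in the table is downstream of the span's first base. The falls come first.
Wee2: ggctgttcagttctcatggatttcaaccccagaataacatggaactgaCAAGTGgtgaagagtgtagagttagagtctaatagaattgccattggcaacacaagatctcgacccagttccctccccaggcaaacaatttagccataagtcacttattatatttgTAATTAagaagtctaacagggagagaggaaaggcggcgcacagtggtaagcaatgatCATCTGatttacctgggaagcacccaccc
Khdc1b: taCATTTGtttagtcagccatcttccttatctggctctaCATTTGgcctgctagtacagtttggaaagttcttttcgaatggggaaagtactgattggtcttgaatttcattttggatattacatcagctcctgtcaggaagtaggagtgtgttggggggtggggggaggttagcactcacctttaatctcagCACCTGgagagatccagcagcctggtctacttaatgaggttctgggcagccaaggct
Btg4: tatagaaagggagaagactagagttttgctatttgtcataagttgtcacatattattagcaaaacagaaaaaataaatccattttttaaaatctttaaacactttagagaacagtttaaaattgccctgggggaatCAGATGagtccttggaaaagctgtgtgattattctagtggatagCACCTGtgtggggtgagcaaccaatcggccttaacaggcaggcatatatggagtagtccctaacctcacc
Oosp1: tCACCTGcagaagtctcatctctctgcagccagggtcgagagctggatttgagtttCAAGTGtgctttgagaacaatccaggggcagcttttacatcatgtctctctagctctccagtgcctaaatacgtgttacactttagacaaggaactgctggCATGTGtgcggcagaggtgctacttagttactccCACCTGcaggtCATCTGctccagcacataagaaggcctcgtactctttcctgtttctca
The rises follow.
Gja1: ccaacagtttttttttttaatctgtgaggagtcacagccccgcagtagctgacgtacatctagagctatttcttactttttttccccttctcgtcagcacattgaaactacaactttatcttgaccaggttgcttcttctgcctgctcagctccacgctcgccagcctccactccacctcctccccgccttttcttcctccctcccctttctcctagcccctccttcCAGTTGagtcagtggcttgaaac
Pgr: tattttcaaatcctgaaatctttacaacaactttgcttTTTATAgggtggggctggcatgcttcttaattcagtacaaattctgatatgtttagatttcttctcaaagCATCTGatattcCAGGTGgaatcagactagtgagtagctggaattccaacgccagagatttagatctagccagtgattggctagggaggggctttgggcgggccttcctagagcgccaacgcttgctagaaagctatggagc
Col3a1: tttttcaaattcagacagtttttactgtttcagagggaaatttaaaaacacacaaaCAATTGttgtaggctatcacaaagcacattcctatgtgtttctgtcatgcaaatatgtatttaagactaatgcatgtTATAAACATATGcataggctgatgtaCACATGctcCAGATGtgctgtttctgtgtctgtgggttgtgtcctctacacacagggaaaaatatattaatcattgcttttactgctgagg
An E-box stood in 8 of the 9 fallen genes with 1 start and in 6 of the 7 such rises, and in 66.2% of all 32851 starts. Oosp1 held 5 of them and Gja1 held 1. A NOBOX-type element stood in 1 of the 9 (Wee2) and 1 of the 7, against 11.3% of all starts, and the TATA letters in 0 of the 9 and 2 of the 7, against 12.4%. In Col3a1 the TATA letters touch an E-box without sharing a base. These counts are few, and a match of letters says nothing about binding.

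Genes of the zona pellucida and the egg surface were mostly lower: of 6 tested, 4 fell (66.7%) and 1 rose (16.7%), with a median of -4.86. Of all genes 16.6% fell and 20.5% rose. Oosp1 (chromosome 19, 11667460 to 11691051), which encodes an oocyte secreted protein, read 45587 and 77828 in oocytes and 13.6 and 90.4 at implantation sites, at least 395-fold lower (-10.73, SE 0.99). Its neighbour Oosp3 fell by 9.27 on the log2 scale and Oosp2 by 5.54. Zp2, a sperm-binding glycoprotein of the zona, read 1500 and 747 against 72.7 and 46.9 (-4.18, SE 0.67, adjusted p = 0.000584), at least 7.02-fold lower. Other zona members were dim already in oocytes. Zp3 read 245 and 112 there, below the control level on both arrays, and Zp1 488 and 279. Izumo1r, the egg receptor of sperm IZUMO1, read 648 and 213 against 120 and 140 and was not called (adjusted p = 0.231). Cd9, the tetraspanin needed for sperm fusion and made by many other cells, was the gene that rose, from 399 and 218 to 1412 and 1236 (2.16, SE 0.44, adjusted p = 0.00259). Zp3, Zp1, Astl and Fetub did not pass the filter on low signals, and Astl, the cortical granule protease, read 1474 and 1177 against 15.8 and 32.6.

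Oocyte growth factors and transcription regulators fell in 6 of 8 tested (75%, against 16.6% of all genes), none rose, and the median was -4.90. Gdf9, the growth factor that the oocyte sends to its granulosa cells, read 14153 and 18394 in oocytes and 114 and 290 at implantation sites (-6.47, SE 0.60, adjusted p = 2.06e-05), 88.8-fold lower. Its partner Bmp15 read 2402 and 3437 against 8.9 and 64.7 (-6.90, SE 1.01), at least 19-fold lower. The homeobox genes Obox5 and Obox2 fell by 10.43 and 9.40. Smaller falls were those of Sohlh2 (-3.33, adjusted p = 0.0111) and of the germ cell factor Taf4b (-1.28, adjusted p = 0.0341). The Sohlh2 call was lost without the oocyte WT array (adjusted p = 0.117), and that of Taf4b without the oocyte KO array (0.171), the oocyte WT array (0.0711) or the implantation site WT array (0.185). Kit, the receptor of stem cell factor, read 5742 and 8120 against 1962 and 2202 and was not called (adjusted p = 0.22). Of the listed regulators, 7 did not pass the filter, among them Lhx8 with 3578 and 4476 against 49.7 and 16.1, Nobox with 1237 and 564 against 25.7 and 69.9, and Rfpl4 with 7976 and 6897 against 2.37 and 11.4.

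Maternal effect genes, whose products the egg needs after fertilisation, fell in 13 of 14 tested (92.9%, against 16.6% of all genes). Their median was -5.95, and none rose. In the subcortical maternal complex, a cytoplasmic assembly under the egg membrane, Nlrp5 read 2555 and 2083 against 88 and 112 (-4.54, SE 0.67, adjusted p = 0.000339) and Ooep 2314 and 1614 against 312 and 301 (-2.66, SE 0.41). Khdc3 read 731 and 255 against 135 and 52.4 (-2.36, adjusted p = 0.00501), a call that was lost without the oocyte KO array (adjusted p = 0.0714). Tle6 read 993 and 370 against 37.7 and 218 and was not called (adjusted p = 0.0713), but it passed without the implantation site WT array (0.0122). Padi6, a component of the cytoplasmic lattices, fell by 5.99. Zbed3 read 94618 and 143826 against 847 and 892 (-7.07, SE 0.46), 134-fold lower and still above the control level at implantation sites. Dppa3, which guards maternal methylation in the zygote, read 7145 and 7549 against 55.6 and 120, at least 48.7-fold lower. Zar1, which binds maternal messages, fell by 5.38 on the log2 scale. Among the NLR genes, the differences were -10.91 for Nlrp9a, -10.45 for Nlrp4b and -8.40 for Nlrp4f. Near-identical members of the Nlrp4 and Nlrp9 families and of the Obox and Oosp clusters can share probe signal, so the split between members is uncertain.

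Regulators of meiotic maturation and MII arrest fell in 14 of 21 tested (66.7%, against 16.6% of all genes), with a median of -2.02. They rose in 2 (9.52%, against 20.5%). Aurkc, the germ cell Aurora kinase, read 15505 and 20021 in oocytes and 157 and 256 at implantation sites (-6.46, SE 0.36, adjusted p = 2.04e-06), 88.1-fold lower. The spindle checkpoint gene Bub1b read 28542 and 37683 against 1865 and 1427 (-4.33, SE 0.37), and Mad2l1 of the same checkpoint 19399 and 30328 against 3543 and 3139 (-2.86, SE 0.44). Ccnb2 fell 3.53-fold and Plk4, the kinase of centriole duplication, 4.92-fold, while Cdc20, the activator of the anaphase promoting complex, fell by 1.62 (adjusted p = 0.023). Ccna2 read 8922 and 11548 against 6424 and 5084 and was not called (adjusted p = 0.068), though it passed without the implantation site KO array (0.0458). Cdk1, the kinase that drives both meiosis and mitosis, went the other way, from 106 and 145 to 1591 and 1750 (3.75, SE 0.43, adjusted p = 6.86e-05), at least 5.27-fold higher. Bub1 rose from 153 and 262 to 915 and 870 (2.16, SE 0.51). Mos, the kinase of the cytostatic arrest, did not pass the filter and read 752 and 823 against 69.3 and 23.9.

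Genes of maternal mRNA storage and decay mostly fell, in 12 of 20 tested (60%, against 16.6% of all genes), with a median of -1.78. Another 5 rose (25%), near the 20.5% of all genes. Beside Btg4, the falls included Dazl, a germ cell translation regulator (12480 and 6407 against 140 and 63.6, -6.57, SE 0.55, 94.9-fold, or 57.4-fold against the control level), the decapping cofactor Dcp1a (21127 and 24222 against 412 and 387, -5.82, SE 0.47, 56.7-fold) and the deadenylase subunit Cnot6l (16203 and 15276 against 993 and 915, -4.05, SE 0.38). Lsm14b, a partner of stored messages, fell by 3.84 and the deadenylase subunits Pan2 and Cnot7 by 3.26 and 3.12. The fall of Patl2 (-2.24, adjusted p = 0.0262) was lost without the oocyte KO array (0.195) or the implantation site KO array (0.26). Zfp36l1, which sends AU-rich messages to decay, rose from 685 and 1295 to 17017 and 14081 (4.04, SE 0.44, adjusted p = 5.31e-05), 16.4-fold, and its relative Zfp36l2 rose 3.13-fold. The terminal uridylyl transferase Tut7 rose 4.58-fold, the decapping enzyme Dcp2 4.13-fold and the helicase Ddx6 2.49-fold.

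Markers of cumulus and granulosa cells, the somatic cells that surround the egg, were looked up in oocytes. On the oocyte KO and WT arrays 3 and 9 of 14 measured were above the control level. Of all probe sets 20.44% and 45.39% were above it, so these counts do not show that the markers were low. The summed signal of the list was 5980 and 7608. Amh, Fshr and Cyp11a1 were at or below the control level on both oocyte arrays. Foxl2 (264 and 988), Tnfaip6 (415 and 734) and Ptx3 (130 and 326) were above it on the oocyte WT array and below it on the oocyte KO array. Of 11 tested, 1 rose (Ptx3, 3.41, adjusted p = 0.0457) and 1 fell (Nr5a2, -2.86, adjusted p = 0.000214), and Nr5a2 is also a maternal factor of the egg. The Ptx3 call was lost without any of the oocyte KO (0.155), oocyte WT (0.157) and implantation site KO (0.543) arrays. The part of such cells in the results was not tested.

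By the same ranking the 12 largest rises were Ctla2a, Gja1, Pgr, Col1a1, Col3a1, Pdgfra, Spink1, Snai2, Hand2, Slc6a2, Dpt and Col1a2. Pgr, the progesterone receptor (chromosome 9, 8898900 to 8968611), read 290 and 148 in oocytes and 30636 and 27384 at implantation sites (7.13, SE 0.51, adjusted p = 7.22e-06), at least 91.5-fold higher. Ctla2a, an inhibitor of cysteine proteases, read 60.9 and 498 against 66551 and 57256 (8.47, SE 1.08, adjusted p = 0.000133), and 1 of the 2 oocyte arrays was above the control level, so that the fitted 355-fold rise is 114-fold when the dimmer array is set to that level. Pdgfra, a growth factor receptor of mesenchyme, read 78.8 and 199 against 26657 and 16941 (7.41, SE 0.47). Snai2, a transcription factor of mesenchymal cells, rose 65.7-fold and Dpt, a matrix protein also called dermatopontin, at least 44.5-fold. Slc6a2, which takes up noradrenaline, read 531 and 269 against 19744 and 16912 (5.60, SE 0.77), but its call was lost with the mean of its 4 probe sets (0.58, adjusted p = 0.565). These too were taken from genes with separate arrays, and the blastocyst mean was nearer to the oocyte on all 12. Of the 24 named rises and falls 13 had other probe sets, 23 in all, and 17 of these 23 moved the same way as the representing one, 12 of them at least 8-fold. The 6 that went the other way were both others of Hand2 (-1.34 and -1.29), 1 of Pgr (-1.54) and the 3 others of Slc6a2 (-2.29 to -0.10).

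Genes of decidual stroma rose in 10 of 22 tested (45.5%, against 20.5% of all genes) and fell in 1, with a median of 1.76. Their summed signal was 14440 and 20041 in oocytes and 157202 and 148682 at implantation sites. Hand2, the progesterone-induced regulator of stroma (chromosome 8, 57320983 to 57324517), read 119 and 235 in oocytes and 18803 and 15722 at implantation sites (6.69, SE 0.86, adjusted p = 0.000141). Hoxa10, a homeobox gene required for the decidual response, read 27.7 and 23.1 against 3532 and 3207 (7.06, SE 0.66, adjusted p = 2.11e-05), at least 10.6-fold higher. Bmp2, the signal that drives stromal differentiation, read 273 and 198 against 13285 and 8357 (5.50, SE 0.60), 45.3-fold higher. In each of these both implantation site arrays lay above both oocyte arrays. Nr2f2, a nuclear receptor of stroma, rose 15.4-fold and the proteoglycan Dcn 18.8-fold, or 7.73-fold and 11.6-fold against the control level. Igfbp4 rose 42.3-fold. Fst, which binds activins, rose by 2.71 (adjusted p = 0.0484). The oestrogen receptor Esr1 read 1851 and 1893 against 9119 and 8021 but was not called (SE 1.15, adjusted p = 0.16), and Hoxa11 (1.74, adjusted p = 0.0879) and Cebpb (1.78, adjusted p = 0.0943) were not called either. Fkbp5, a cochaperone of steroid receptors, fell from 3815 and 5884 to 586 and 523 (-3.10, SE 0.60). Of the hormones of differentiated decidual cells, Prl8a2 read 217 and 211 at implantation sites against 708 and 588 in oocytes and was not called (adjusted p = 0.116). Prl3c1, which did not pass the filter, read 412 and 489 at implantation sites. Both genes were above the control levels there (130.9 and 173.8). Without each array in turn the list had 8 to 10 rises and 1 fall.

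Collagens and other matrix genes rose in 17 of 28 tested (60.7%, against 20.5% of all genes) and none fell, with a median of 2.89. The fibrillar collagen Col1a1 read 305 and 436 in oocytes and 39380 and 38262 at implantation sites (6.73, SE 0.95, adjusted p = 0.000241), 106-fold higher. Its partner chain Col1a2 rose 41.2-fold, Col3a1 75.7-fold and Col5a2 at least 30.8-fold. Fibronectin, Fn1, rose from 423 and 373 to 6463 and 7748 (4.16, SE 0.40), and the basement membrane genes Nid1 and Col4a1 rose 19.2-fold (12.2-fold against the control level) and 8.06-fold. Postn, a matricellular protein of fibroblasts, read 268 and 118 against 3987 and 3937 (4.48, SE 0.71), at least 12.5-fold higher. Not called were, among others, Tnc (476 and 558 against 274 and 327), Hspg2 (1578 and 1052 against 872 and 1068) and Lamb1, which was bright at both stages (5101 and 10676 against 15806 and 12819).

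Among matrix proteases and their inhibitors, 6 of 13 tested rose (46.2%, against 20.5% of all genes), with a median of 1.90. Only 1 fell (7.69%, against 16.6%). The inhibitor Timp3, made by decidual cells, read 58.3 and 214 against 3259 and 3335 (4.88, SE 0.61, adjusted p = 0.00012). Timp1 read 233 and 687 against 356 and 451 and was not called (SE 0.58), and Timp2 read 258 and 389 against 1497 and 1562 without a call (adjusted p = 0.0695). The gelatinase Mmp2 rose 3.74-fold (adjusted p = 0.0107), a call that was lost without either WT array (0.052 without the oocyte array, 0.123 without the implantation site array), while Mmp9 read 310 and 312 against 225 and 454. The cathepsin genes Ctsb and Ctsl rose 9.32-fold (5.24-fold against the control level) and 3.36-fold and the cathepsin inhibitor Cst3 at least 6.14-fold, but with the mean of all probe sets Ctsb (1.74, adjusted p = 0.0671) and Ctsl (0.69, adjusted p = 0.35) were no longer called. Plat, the tissue plasminogen activator that oocytes store as message, fell from 4327 and 6398 to 898 and 1067 (-2.43, SE 0.42, adjusted p = 0.00101).

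Smooth muscle genes rose in 6 of 8 tested (75%, against 20.5% of all genes) with none lower (median 4.43). Of 12 measured, 9 were above the control level on both implantation site arrays, where 50.72% and 50.77% of all probe sets were above it. The summed signal of the list was 5050 and 5507 in oocytes and 91658 and 98111 at implantation sites. Synpo2, an actin-bundling protein of muscle, read 55 and 35.4 against 6446 and 9648 (7.48, SE 0.77), at least 24.9-fold higher, and Mylk, the myosin light chain kinase, rose 29.1-fold. Acta2, smooth muscle actin and also a marker of activated stroma, read 1238 and 2119 against 14329 and 22572 (3.47, SE 0.56, adjusted p = 0.000621). Defining members differed: Des, which marks muscle and decidual stroma, read 317 and 401 against 26.6 and 356 without a call (adjusted p = 0.173), though it was called lower without the implantation site WT array (-3.87, adjusted p = 0.00986). The other Des probe set went the opposite way, from 136 and 34.6 to 682 and 469 (3.04), so the direction of Des is uncertain. Myh11, the smooth muscle myosin, read 202 and 364 against 894 and 1183 but did not pass the filter. The rise of Myl9 (4.82, adjusted p = 0.0108) was lost without the oocyte WT array (0.112) or the implantation site WT array (0.12), and Tpm2 (4.72) reversed with probe sets without a suffix for shared transcripts (-1.39).

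Of 16 uterine epithelial genes tested 4 rose (25%) and 2 fell (12.5%), near the 20.5% and 16.6% of all genes. The median difference was 0.00. Spink1, a trypsin inhibitor, read 111 and 11.4 in oocytes and 20482 and 16166 at implantation sites (9.00, SE 0.88, adjusted p = 2.76e-05), at least 57.5-fold higher. Prom1, a membrane protein of epithelial protrusions, rose from 1066 and 1403 to 10681 and 10044 (3.08, SE 0.41). The transcription factors Klf5 and Msx1 rose by 2.80 and 2.66. The defining genes of the epithelial sheet did not follow. Cdh1, E-cadherin, fell from 1747 and 3045 to 718 and 254 (-2.43, SE 0.48), and Krt8 (549 and 274 against 231 and 323), Krt18, Epcam and Cldn3 were not called. Elf3 was lower (-2.02, adjusted p = 0.0208), but not without the oocyte KO array (0.134) or the implantation site KO array (0.23). Lif and Ihh, signals of the epithelium before attachment, were not called, with 214 and 285 for Lif and 219 and 216 for Ihh at implantation sites.

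Endothelial genes rose in 4 of 17 tested and none fell, near the share of all genes, with a median of 1.19. At implantation sites 21 of 23 measured were above the control level on both arrays, 10 of them more than 2-fold above. Of all probe sets 50.72% and 50.77% were above it on the single arrays. Pecam1 read 27.7 and 140 at implantation sites, Cdh5 201 and 296, Kdr 820 and 493. Sox17, a transcription factor of endothelium and also of uterine epithelium, was the clearest rise, from 240 and 300 to 4243 and 2872 (3.70, SE 0.57, adjusted p = 0.000442), though it was not called with the mean of all its probe sets (1.53, adjusted p = 0.0788). The calls of Vegfa (3.62), Ramp2 (2.58) and Robo4 (2.95) rested on dim oocyte arrays and were lost without some arrays, so that 3 rose without either KO array, 2 without the oocyte WT array and 1 without the implantation site WT array. The adjusted p for Vegfa reached 0.155 without the oocyte KO array, for Ramp2 0.0962 without the implantation site KO array and for Robo4 0.249 without the implantation site WT array.

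Leukocyte genes rose in 4 of 11 tested (36.4%, against 20.5% of all genes) and none fell (median 1.74). Their summed signal was 5305 and 3863 in oocytes and 54837 and 43113 at implantation sites. Csf1r, the receptor of macrophage colony-stimulating factor, read 960 and 448 against 19673 and 18588 (4.87, SE 0.80, adjusted p = 0.000681), 29.2-fold higher, and it is also made by trophoblast. Another Csf1r probe set went the opposite way (880 and 457 against 157 and 424, -1.30), and a further one rose less. With the mean of its probe sets the rise of Csf1r was 1.69 (adjusted p = 0.0306). Ptprc, the pan-leukocyte antigen CD45, did not pass the filter and read 370 and 65.3 against 3687 and 2558, with both stages apart. The granzymes of uterine natural killer cells were higher as well, Gzma by 4.45 (adjusted p = 0.00278) and Gzmb by 3.39 (adjusted p = 0.00661). The Gzmb call was lost without either KO array (adjusted p = 0.0537 without the oocyte array, 0.0559 without the implantation site array). Laptm5 rose by 5.71, but with probe sets without suffix its difference was -4.25. Tyrobp (704 and 666), Lyz2 (648 and 483) and Adgre1 (437 and 965) at implantation sites were not called, while the T cell gene Cd3e (90.9 and 52.6) and Ncr1 (106 and 94.2) were below the control level. Their part in the results was not tested.

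Of 11 measured red cell genes, 2 (Car2 and Gata1) were above the control level on both implantation site arrays, where 50.72% and 50.77% of all probe sets were above it. Hba-a1 read 12.8 and 15.7 at implantation sites, Hba-x 83 and 9.61, Hbb-y 35.5 and 7.74 and Alas2 46.5 and 27.1, all below the control level, and 8 of 11 measured did not pass the filter. Of the 3 tested, 1 rose: Car2, which other cells make too (2.77, adjusted p = 0.0329), with the call lost without the oocyte WT (0.247) or the implantation site WT array (0.287). Antigen presentation genes rose in 5 of 8 tested (62.5%, against 20.5% of all genes) and none fell (median 2.50). B2m, the light chain of class I molecules, rose from 473 and 835 to 8171 and 9899 (3.84, SE 0.35, adjusted p = 1.93e-05), 14.3-fold, and the class I gene H2-D1 at least 5.03-fold. H2-K1 (2.45) lost its call without the oocyte KO (0.15) or the implantation site WT array (0.234), and the class II chain H2-Aa (3.22) without the implantation site KO array (0.0635). Class II partners were not called or did not pass the filter: Cd74 read 182 and 535 against 256 and 452 and H2-Ab1 182 and 189 against 14.1 and 134. The number of antigen presentation genes that rose was 4 without the oocyte WT array and 3 without each of the others.

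The label of embryos was set against markers of the embryo and its trophoblast. Of 20 measured genes of epiblast and pluripotency, 4 were above the control level on both implantation site arrays, namely Klf4, Dnmt3b, Dppa5a and Pim2. On the single arrays 50.72% and 50.77% of all probe sets were above that level. The defining genes were at or near it: Pou5f1 read 130 and 210 (control levels 130.9 and 173.8), Sox2 39.3 and 60.2, Nanog 4.94 and 10.6, Tdgf1 8.42 and 12.1 and Utf1 65 and 71.4. The summed signal of the list was 30687 and 46609 in oocytes and 5027 and 8899 at implantation sites. Of 17 tested, 5 fell (29.4%, against 16.6% of all genes) and 1 rose (5.88%, against 20.5%), with a median of -1.55. Sall4, stored in the egg, fell from 21369 and 39079 to 158 and 16.7 (-9.13, SE 0.82, adjusted p = 1.91e-05). The WT array was below the control level, and the fitted 562-fold fall is 174-fold with that array set to it. Lin28a fell by 4.48. The calls of Lin28a, Pou5f1 (-2.04) and Esrrb (-2.39) were each lost without the oocyte KO array (0.0638, 0.135 and 0.132) or the implantation site KO array (0.0594, 0.123 and 0.168), while Dnmt3b was not called after scaling to a common median (0.0734). Klf4, which epithelial and stromal cells also express, rose 8.09-fold, or 4.96-fold against the control level. Without either KO array 2 genes of the list fell, without the oocyte WT array 8 and without the implantation site WT array 6.

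Of 19 measured trophoblast genes, 6 were above the control level on both implantation site arrays. On the single arrays 50.72% and 50.77% of all probe sets were above that level. Cdx2 read 111 and 31.1, Elf5 105 and 21.6, Ascl2 29.4 and 22 and Hand1 188 and 215. Brighter members were Tfap2c, with 3893 and 1752 at implantation sites, and Eomes, with 497 and 389. The summed signal was 9003 and 12652 in oocytes and 8484 and 6253 at implantation sites. Of 13 tested, 2 rose (15.4%) and 3 fell (23.1%), against 20.5% and 16.6% of all genes (median -0.65). Gata2 rose from 110 and 420 to 2657 and 2163 (3.48, SE 0.60, adjusted p = 0.000907) and is also a gene of endometrial stroma. Gata3 fell from 995 and 864 to 24.8 and 29 (-5.11, SE 0.60), at least 6.15-fold. Eomes (2.06) lost its call without the oocyte WT (0.16) or the implantation site KO array (0.078), Tfap2c (-1.41) without the oocyte WT (0.335) or the implantation site WT array (0.233), and Tead4 (-2.68), with all 4 arrays below the control level, without either KO array (0.159 for the oocyte, 0.19 for the implantation site). The giant cell hormone genes Prl3d1 and Prl2c2 had no probe set of their own in the annotation used.

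Visceral and primitive endoderm genes did not move together: of 16 tested 5 rose (31.2%) and 2 fell (12.5%), against 20.5% and 16.6% of all genes. Their median was -0.08, and 11 of 23 measured were above the control level on both implantation site arrays. On the single arrays 50.72% and 50.77% of all probe sets were above that level. Afp, the serum protein of visceral endoderm, read 44.4 and 28 at implantation sites, below the control level, against 805 and 448 in oocytes (-4.09, SE 0.62), and Amn (13.1 and 10.1), Apoa1 (44.2 and 24.9) and Cubn (144 and 137) were at or below it on at least 1 array. Ttr, the carrier of thyroid hormone and retinol, stood apart with 163 and 24.8 against 8783 and 4915 (6.69, SE 0.88, adjusted p = 0.000162), at least 20.7-fold higher. Serpinh1, Sparc and Col4a1 rose by 4.41, 2.92 and 3.01, and these collagen and basement membrane genes belong to stroma as well. Mesoderm markers rose in 2 of 7 tested (28.6%) and fell in 1 (14.3%), with a median of 0.27. The 2 that rose were Eomes and Pdgfra, shared with trophoblast and stroma. Of 16 measured, 6 were above the control level on both implantation site arrays. The defining epiblast genes were thus at or near the control level, while Ttr of endoderm and Tfap2c and Gata2 of trophoblast were well above it. Hand2, Hoxa10, Pgr and Bmp2 of decidual stroma were high. Of the 22 decidual genes tested 11 were not called, Hoxa11 and Prl8a2 among them. Which tissue was taken was not tested, and the arrays are named by the tissue label here.

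**Figure D3:**
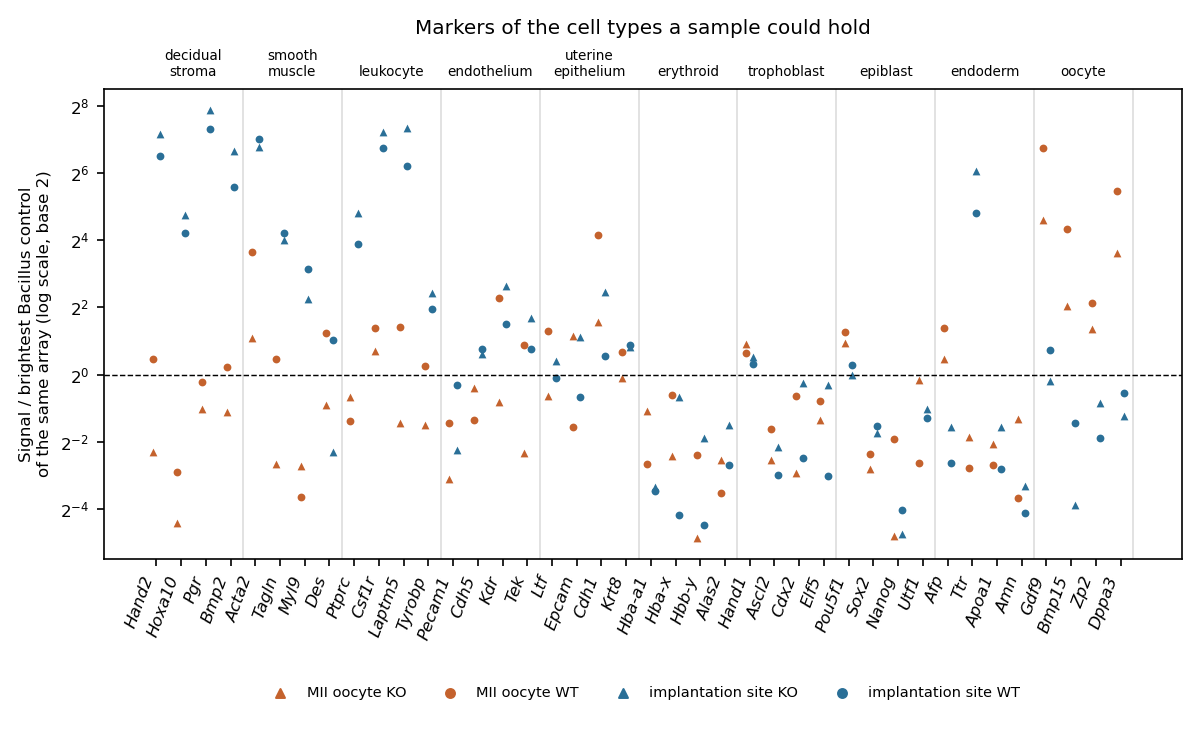
Signal divided by the brightest Bacillus control of the same array (y axis, log scale of base 2) for 4 listed genes of each cell type, with MII oocytes in orange, implantation sites in blue, KO as triangles, WT as circles and the control level as a dashed line. At implantation sites the 4 decidual stroma genes shown lie far above the line. The erythroid, trophoblast and epiblast genes shown lie near or below it there. Hoxa11 of decidual stroma and the brighter trophoblast genes Tfap2c, Gata2 and Eomes are not shown. Ttr stands apart among the endoderm genes.

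Insulin-like growth factor and imprinted growth genes rose in 10 of 21 tested (47.6%, against 20.5% of all genes), with a median of 1.59. They fell in 3 (14.3%), near the 16.6% of all genes. Igf1, made by uterine stroma, rose from 558 and 691 to 11550 and 7369 (3.89, SE 0.55, adjusted p = 0.000243), 14.9-fold. Of its binding proteins, Igfbp4 rose by 5.40, Igfbp3 by 4.78, Igfbp5 by 4.16 and Igfbp7 by 3.59, while Igfbp2 and Igfbp6 were not called. Igfbp7 lost its call without the oocyte KO (0.0969), the implantation site KO (0.0555) or the implantation site WT array (0.0665). Igf2, the growth factor of embryo and placenta, read 566 and 309 against 113 and 39.2, at or below the control level on both implantation site arrays (-2.65, adjusted p = 0.00809), a call lost without the oocyte KO (0.0542) or the implantation site WT array (0.056). The placental growth restrainer Phlda2 read 717 and 377 against 17.1 and 13.2 (-5.11, SE 0.79), at least 3.45-fold lower. Among other imprinted genes, Grb10 (3.80-fold), Plagl1 (4.77-fold), Ndn (16.0-fold, or 10.6-fold against the control level) and Meg3 (3.19-fold) were higher and Mest was lower (2.90-fold).

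Gap junction genes, Gja1 included, rose in 4 of 8 tested (50%, against 20.5% of all genes) and none fell, with a median of 0.37. The other 3 rises were smaller than that of Gja1. Gjb2, connexin 26 of uterine epithelium, read 481 and 71.2 against 870 and 1440, at least 3.53-fold higher (2.60, adjusted p = 0.0238), and Gjc1, connexin 45, 727 and 1103 against 5245 and 4710 (2.47, adjusted p = 0.0316). Gjb2 was not called without the oocyte WT (0.248) or the implantation site WT array (0.216), Gjc1 not without the oocyte KO (0.0637), oocyte WT (0.188) or implantation site KO array (0.335), and Tjp1 (1.01, adjusted p = 0.0441) not without the oocyte KO (0.123), oocyte WT (0.146) or implantation site KO array (0.316). The number that rose was thus 2 without either KO array, 1 without the oocyte WT array and 3 without the implantation site WT array. Gja4, connexin 37, the channel between oocyte and granulosa cells, read 472 and 159 against 184 and 254 and was not called.

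DNA methylation and oocyte chromatin genes split evenly, with 5 of 16 tested higher and 5 lower (median -0.67). Each count is 31.2%, against 20.5% of all genes higher and 16.6% lower. Uhrf1, the cofactor of maintenance methylation, read 26746 and 48666 in oocytes and 5988 and 5756 at implantation sites (-2.62, SE 0.40, adjusted p = 0.000442), 6.15-fold lower, and the demethylase Kdm1b, which sets maternal imprints, read 7127 and 8440 against 505 and 727 (-3.68, SE 0.41), 12.8-fold lower. Dnmt1 read 20913 and 28451 against 17327 and 13102 and was not called (adjusted p = 0.151). Dnmt3b fell 2.93-fold. The calls of Dnmt3a (-1.06, adjusted p = 0.0499) and Dnmt3l (-1.95, adjusted p = 0.0434) were lost without the oocyte KO array (0.114 and 0.269) or the implantation site KO array (0.212 and 0.293), and that of Dnmt3a without either WT array too (0.152 for the oocyte, 0.0672 for the implantation site). Tet2, a 5-methylcytosine dioxygenase, rose from 21.1 and 120 to 1289 and 1058 (4.54, SE 0.63), at least 3.69-fold, and Hdac1 at least 3.13-fold.

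DNA replication genes rose in 7 of 27 tested (25.9%) and fell in 3 (11.1%), near the 20.5% and 16.6% of all genes, with a median of 0.28, and all 27 were above the control level on both implantation site arrays. Prim1, the primase subunit, read 52.1 and 27.2 against 1873 and 905 (5.11, SE 0.50, adjusted p = 2.85e-05), at least 4.11-fold higher, and the polymerase gene Pole rose at least 4.44-fold. The origin recognition subunit Orc6 fell from 11146 and 14462 to 2077 and 1589 (-2.80, SE 0.36) and Gmnn, the inhibitor of licensing, from 14062 and 26756 to 6008 and 3997 (-1.98, SE 0.43). The MCM helicase subunits did not move as a set: Mcm6 rose 5.16-fold, Mcm4 read 22791 and 34761 against 26721 and 17336 without a call, and the calls of Mcm2 (-1.03, adjusted p = 0.0484) and Mcm5 (1.39, adjusted p = 0.0183) were lost without the implantation site KO array (0.0771 and 0.158) or the oocyte WT array (0.331 and 0.0937). Mcm6 was not called with the mean of its probe sets (0.39, adjusted p = 0.497). Mcm2 was also lost without the implantation site WT array (0.162) and Mcm5 without the oocyte KO array (0.074).

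Among G1 cyclins and CDK inhibitors 3 of 17 tested rose and 1 fell, near or below the shares of all genes. Ccnd1, the cyclin D that growth factors induce, rose from 432 and 557 to 3555 and 4486 (3.02, SE 0.38, adjusted p = 0.00012), 8.14-fold. Rb1, the retinoblastoma protein gene, fell from 9586 and 8864 to 884 and 1278 (-3.12, SE 0.60), 8.67-fold, though not with the mean of its probe sets (-2.21, adjusted p = 0.0654). Cdk4 rose by 2.40 (adjusted p = 0.00568) and was not called without the implantation site WT array (0.0657), and Cdkn2c (1.31) was not called without the oocyte WT (0.239) or the implantation site WT array (0.259). The number that rose was 1 without the implantation site WT array and 2 to 4 without each of the others.

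**Figure D4:**
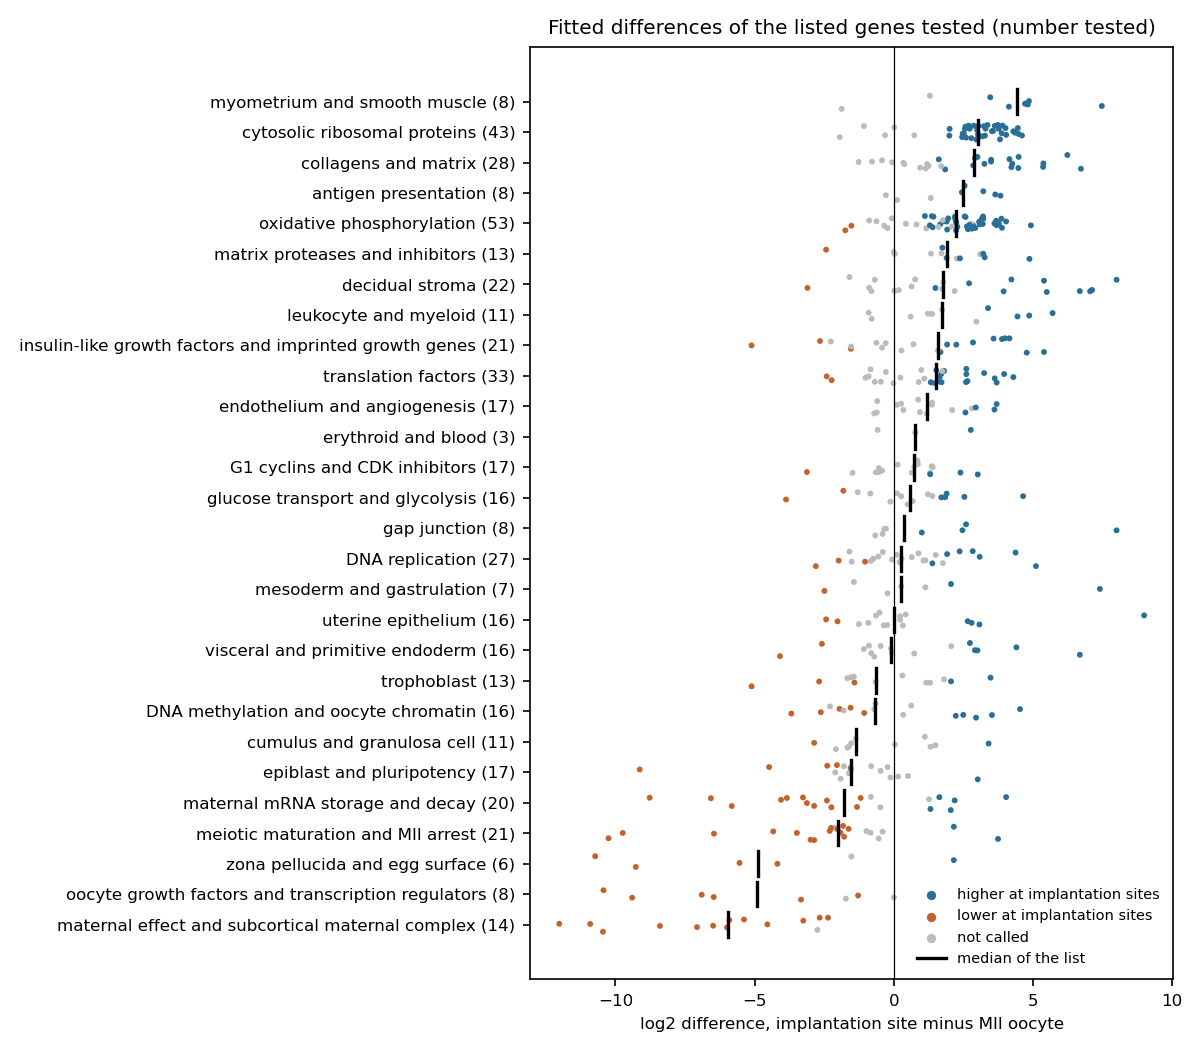
Fitted log2 difference, implantation site minus MII oocyte (x axis), of each gene tested in the 28 lists (y axis, with the number tested), coloured by call, with the median of the list as a black bar. Oocyte lists lie at the bottom, from -5.95 for maternal effect genes, and smooth muscle, ribosomal, matrix, antigen presentation and oxidative phosphorylation genes at the top, while most lists hold genes on both sides of 0.

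Genes of protein synthesis and respiration were higher at implantation sites as groups. Of 43 cytosolic ribosomal protein genes tested 38 rose (88.4%, against 20.5% of all genes) and none fell, with a median of 3.04. Rps25 read 966 and 1009 in oocytes and 23065 and 21268 at implantation sites (4.49, SE 0.31, adjusted p = 6.12e-06), 22.4-fold higher, and Rplp0 of the ribosomal stalk 467 and 1120 against 7540 and 9825 (3.57, SE 0.35). Rpl7 rose 14.8-fold and Rpl4 6.62-fold. Rpl37, Rpl39, Rps15, Rps27 and Fau were tested and not called, and of these Rpl37 read 1489 and 1805 against 310 and 590 (adjusted p = 0.0558). The median signal of the 43 genes on the log2 scale was 10.56 in oocytes, 13.99 in blastocysts and 13.66 at implantation sites. Only 44 of 79 listed genes had a probe set annotated to a single gene, and pseudogene copies may share signal with them. Without each array in turn 37 or 38 rose, and without the implantation site WT array 2 fell. The rise of Rps4x (4.46) was lost with the mean of its probe sets (1.34, adjusted p = 0.123).

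Translation factors rose in 18 of 33 tested (54.5%, against 20.5% of all genes) and fell in 2 (6.06%, against 16.6%), with a median of 1.53. Eef1a1, which delivers aminoacyl-tRNA, rose from 4396 and 9382 to 60446 and 61710 (3.25, SE 0.43, adjusted p = 0.00017), and the initiation factor 3 subunits Eif3m and Eif3f rose by 4.30 and 3.63. The 2 falls were Eif2s2 and Eif5b. Eif2s2, a subunit of the factor that brings the initiator tRNA, fell from 74392 and 113958 to 23197 and 16593 (-2.23, adjusted p = 0.00386), Eif5b fell by 2.41, and Eif4g2, Eif3e and Eif4e were not called. Eif4a1 read 12207 and 33628 against 12135 and 8381 (adjusted p = 0.0964) and was called lower without the oocyte KO (-1.75, adjusted p = 0.0161) or the implantation site KO array (-1.59, adjusted p = 0.0249). Eef1d (0.84, adjusted p = 0.18) and Eef2 (-0.09) were not called when the probe sets of a gene were averaged, nor was Eif4h with probe sets without suffix (-0.50).

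Oxidative phosphorylation genes rose in 39 of 53 tested (73.6%, against 20.5% of all genes) and fell in 2 (3.77%, against 16.6%), with a median of 2.24. Ndufa1 of complex I read 1611 and 1173 against 19723 and 18012 (3.78, SE 0.38, adjusted p = 3.1e-05), 13.7-fold higher, and Cyc1 of complex III 853 and 814 against 7400 and 7588 (3.17, SE 0.33). Cox4i1 of complex IV rose 6.21-fold and Atp5pb of the ATP synthase 9.34-fold, the last not called with probe sets without suffix (1.91, adjusted p = 0.0596). The 2 that fell were Ndufa10 (-1.74) and Sdha (-1.52), and Atp5b was not called (850 and 799 against 1847 and 1870, adjusted p = 0.0762). Median signals on the log2 scale were 9.70 in oocytes, 12.39 in blastocysts and 11.77 at implantation sites, and in 50 of the 53 genes the blastocyst mean was above that of oocytes. Without each array in turn 32 to 37 rose.

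**Figure D5:**
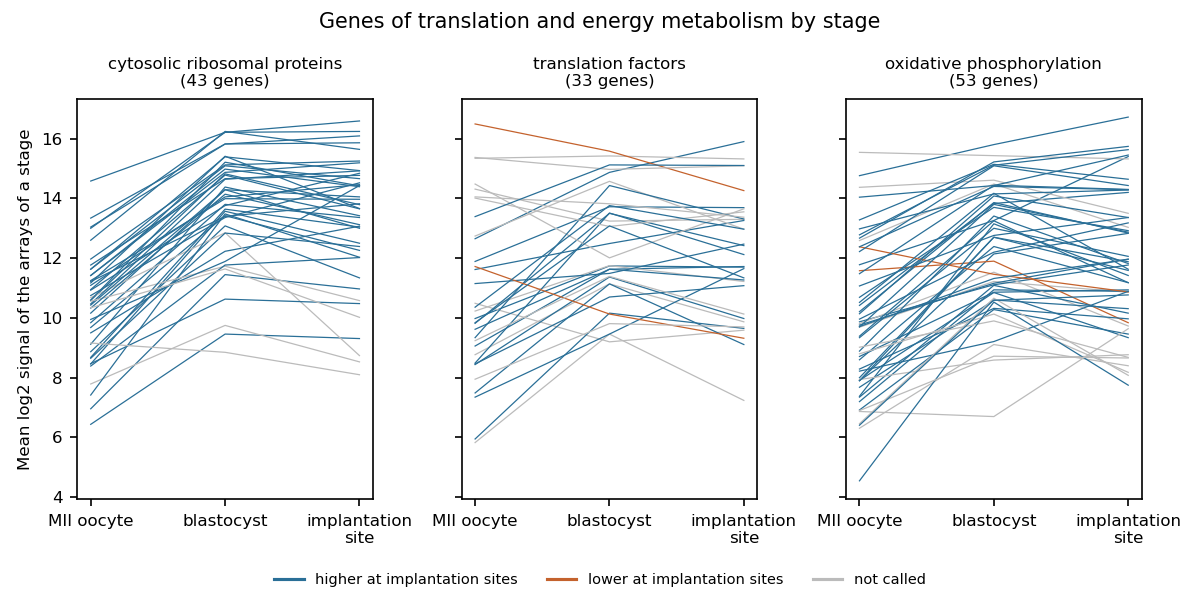
Mean log2 signal (y axis) of each gene tested in 3 lists at MII oocyte, blastocyst and implantation site (x axis), 1 line per gene, blue where it was called higher and orange where it was called lower at implantation sites than in oocytes. The step between oocyte and blastocyst carries most of the rise of ribosomal protein genes, whose medians were 10.56, 13.99 and 13.66.

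Glucose transport and glycolysis genes rose in 5 of 16 tested (31.2%, against 20.5% of all genes) and fell in 2 (12.5%, against 16.6%), with a median of 0.59 and with both lactate dehydrogenase genes called in opposite directions. Ldhb, the lactate dehydrogenase subunit of the egg (chromosome 6, 142490249 to 142507957), fell from 18838 and 16810 to 803 and 1842 (-3.87, SE 0.48, adjusted p = 0.000109), 14.6-fold. Its isoform Ldha read 84.9 and 653 against 1511 and 1233 (2.54, adjusted p = 0.0426), a call lost without either KO array (0.373 for the oocyte, 0.321 for the implantation site). Slc2a3, a glucose transporter of embryo and decidua, read 69.7 and 97.4 against 2233 and 1918 (4.65, SE 0.36, adjusted p = 9.55e-06), at least 6.54-fold higher, while the transporter Slc2a1 read 3982 and 6982 against 7445 and 4430 and was not called (adjusted p = 0.829). Pgk1 rose 3.72-fold, Tpi1 3.60-fold and Pgam1 3.28-fold, the Pgk1 call being lost without the oocyte KO array (0.0777). Aldoc was lower (-1.81, adjusted p = 0.0425), but not without any single one of the 4 arrays (0.0944 to 0.132).

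Read across the 3 stages, the difference between implantation site and oocyte was often present in blastocysts. Of the 2409 higher calls, 1592 had a blastocyst mean nearer to the implantation site than to the oocyte (66.1%), and of the 1955 lower calls 1293 (66.1%). The 12 named rises were of the other kind, with the blastocyst mean nearer to the oocyte. Both genotypes gave the same direction for 75.1% of all genes tested. In oocytes 4253 genes were at least 2-fold apart between the KO and the WT array, and at implantation sites 2581, each without a replicate.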

How the data were processed

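RNA of MII oocytes, blastocysts and implantation sites was hybridised to 8 single-channel arrays, and 1 oocyte and 1 implantation site array stand for each genotype. The deposited intensity values are linear signals that the authors made with MAS5, per the submitters' processing notes, in a version that no source used here gives, and each array had a 2% trimmed mean of 500. Of 45101 probe sets, 34945 were annotated to 1 gene, 932 to several, 9160 to none and 64 were controls. For a gene with several, the brightest on average (log2, 8 arrays) stood for it, which gave 18193 genes. Those whose probe set was in the upper 50% by that mean, 11746 in all, were tested. Genes high at a single stage can fail this filter, and lists say so.

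Log2 signals of the 8 arrays were fitted on stage plus genotype (limma 3.58.1, R 4.3.3, moderated with an intensity trend), and Benjamini-Hochberg adjusted p under 0.05 was called. The differences rest on 2 arrays per stage, and this number of arrays limits the precision. The two-sided p-values take their spread from all 8 arrays. An exact permutation test of 2 against 2 arrays cannot reach the threshold and was not used. The code was checked on simulated data. The background was the brightest of 27 Bacillus probe sets of each array; the labels do not say whether Bacillus RNA had been added. Tables and figures were made with Python 3.11.15, pandas 2.3.3, numpy 2.4.6 and matplotlib 3.10.9.

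Named were Gja1, the 12 largest rises and 12 largest falls among called genes with separate arrays, ranked by differences of signals raised to the background level, and from each of 28 lists (691 genes, 603 with a probe set, 482 tested) the first 4 measured members and up to 4 further called ones with the largest such difference; the other genes printed from the lists, and Reep4, were named after their values were seen. Members and lists were chosen with earlier results of these data known. Alternatives were quantile normalisation, a common median, a pseudocount of 50.4, both background floors, no filter, the upper 30% of probe sets, averaged probe sets, probe sets without suffix, no intensity trend, the 4 arrays alone, no genotype term, and each array left out.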

Additional observations from a re-analysis of the deposited data

Results flagged for a closer look

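The KO pair and the WT pair of arrays gave opposite signs for Utf1, a gene of epiblast and pluripotency, with a log2 difference of -3.01 in the KO pair and 1.39 in the WT pair. Its signals were below the control level on all 4 arrays, 522 and 27.3 in oocytes and 65 and 71.4 at implantation sites (KO, then WT), so that both differences are between values at background. The median difference of the uterine epithelium list was -0.72 in the KO pair and 0.64 in the WT pair. That of visceral and primitive endoderm was -0.15 and 0.96, and that of mesoderm and gastrulation -0.45 and 0.19. With 1 array per stage and genotype, the difference between the genotypes was not tested for any of these. The control level of the oocyte KO array was 587.6 and that of the oocyte WT array 170.7, and its part in these values was not tested.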

How the results depend on the processing

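The counts of 2409 higher and 1955 lower genes stayed within 1.5 times under every setting run, between 1650 and 2538 higher and 1519 and 2499 lower, and without single arrays between 1711 and 2186 and between 1336 and 1987. With signals floored at each array's control level 1997 were higher and 2499 lower, so that 44.4% of calls were higher against 55.2%, and the median of all genes moved to -0.58. After scaling to a common median the median was 0.13. With one common floor, added after seeing the data, 1523 genes rose at least 2-fold against 2405. Averaging the probe sets of a gene turned Eef2 (-0.09), Mcm5 (-0.66) and the median of G1 cyclins (-0.35). Probe sets without suffix turned Eif4h (-0.50), Laptm5 (-4.25), Mcm5 (-0.12), Tpm2 (-1.39) and the medians of insulin-like growth factors and imprinted genes (-0.29) and of DNA methylation (0.70). The floor per array turned Robo4 (-0.54) and the medians of endothelium (-0.13) and erythroid genes (-0.65). The cumulus median was 0.05 with the upper 30% of probe sets and ranged from -2.27 to 0.66 without single arrays, the trophoblast median from -1.05 to 0.04. The causes were not tested. Signal over background limits the dim genes, whose folds are bounds. No paired analysis was possible because the labels give the oocyte and implantation site arrays no replicate number. Genotype, which both stages share, was a term of the fit, and with the 4 arrays alone, which leaves 1 residual degree of freedom, 2233 genes were higher and 1803 lower.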
